A study of Mus musculus with 12 samples.

Results

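Heat shock proteins and their J-domain co-chaperones were followed in mouse ventricle. The members were the genes whose symbol begins with Hspa, Hspb, Hspd, Hspe, Hsph or Hsp90a, or with Dnaja, Dnajb or Dnajc and a digit, plus the small heat shock protein gene Cryab, the co-chaperone Bag3, the transcription factor Hsf1, and the Hsp-binding genes Hspbp1 and Hspbap1 that the same prefix takes in. Genes of the endoplasmic reticulum folding response (Hspa5, Hsp90b1, Dnajb9, Dnajb11, Dnajc3), the matrix gene Hspg2 and pseudogenes were left out. Of 72 matching symbols, 63 had at least 10 counts in at least 6 of 12 libraries, out of 54949 features in the table. All 63 in fact had at least 10 counts in all 12 libraries, and all passed the low-count filter that left 15114 genes to test. The 9 below the minimum were Dnajb3, Dnajb7, Dnajb8, Dnajb13, Dnajc5b, Dnajc5g, Dnajc6, Dnajc22 and Hspb9.

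The libraries are bulk RNA-seq of ventricles with the atria removed, from wild-type male C57BL/6N mice that entered the study at 8 weeks of age. For 5 weeks 1 group received a high-fat diet with L-NAME, a nitric oxide synthase inhibitor, at 0.5 g/L in the drinking water, a regimen used to model heart failure with preserved ejection fraction (HFpEF), and the other group received normal diet and water. The labels contradict each other on which libraries are which. The 6 libraries named con-1 to con-6 have titles and treatment labels of HFpEF with the high-fat diet and L-NAME, and the 6 named HF-1 to HF-6 have those of the control group on normal diet. Groups are named here by library name alone, as con-named and HF-named, and "higher" and "lower" mean HF-named relative to con-named. From these labels, which group received the regimen cannot be told apart, so no difference below is assigned to it. The study's design names 5 bulk samples per group while the labels hold 6, and nothing says that the 6 came from separate mice, so the p-values measure only the spread between these libraries. In whole tissue, fewer cells of a type and less RNA per cell cannot be told apart.

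Cells meet misfolded protein with ATP-driven machines. Hsp70 binds exposed hydrophobic stretches, J-domain proteins bring clients to Hsp70 and trigger its ATP hydrolysis, and Hsp110 proteins and Bag3 act as nucleotide exchange factors that release the client. Hsp90 takes over late folding of kinases and receptors, the Hspd1 and Hspe1 chaperonin folds proteins inside mitochondria, and small heat shock proteins hold unfolding proteins without ATP. In heart muscle the small heat shock proteins and Bag3 guard desmin, titin, filamin and actin, and mutations of CRYAB, BAG3 and HSPB8 cause muscle disease. Hsf1 drives the inducible members by binding heat shock elements, inverted repeats of the unit nGAAn.

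Such elements could be read as letters in the RefSeq promoters (GRCm38.p6, 250 bases before to 50 after each annotated start) of 49 of the 63 members. Searched on both strands as GAANNTTC or TTCNNGAA, each its own reverse complement, a pair of units was found in 16 of the 49 (32.7%), against 17.0% of the 27025 genes with a promoter entry and 15.1% of the 32851 promoters. A longer form with 3 units at the same spacing, which contains the shorter ones, was found in Dnajb6, Hspd1, Hspe1 and Hsph1, 4 of 49 (8.2%) against 0.66% of genes. The Hspd1 and Hspe1 windows share 285 bases, so in both counts the same site is counted for both genes. The Hspa1a and Hspa1b promoters are near copies, so the members' counts are not of independent sites. The stretches below hold elements that lie before the start of 4 called members, of the chaperonin pair and of the inducible Hsp70 pair. The longer form of Hsph1 lies after its annotated start and is not printed. Capitals mark the elements, and each runs 5′ to 3′ on the strand of its gene.
Hspe1, and Hspd1 on the other strand (chr1:55088053-55088082, plus strand): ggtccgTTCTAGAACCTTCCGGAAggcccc
Hspb1 (chr5:135887777-135887854, plus strand): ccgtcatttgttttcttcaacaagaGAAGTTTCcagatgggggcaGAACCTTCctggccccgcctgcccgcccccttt
Dnaja4 (chr9:54699444-54699539, plus strand): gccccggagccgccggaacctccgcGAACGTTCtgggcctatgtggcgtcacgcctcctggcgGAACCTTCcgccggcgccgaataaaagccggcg
Hsph1 (chr5:149636351-149636380, minus strand): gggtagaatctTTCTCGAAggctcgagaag
Dnajb4 (chr3:152193846-152193884, minus strand): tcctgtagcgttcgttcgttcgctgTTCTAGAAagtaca
Hspa1a (chr17:34972228-34972285, minus strand): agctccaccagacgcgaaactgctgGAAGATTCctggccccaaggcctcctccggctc
Hspa1b (chr17:34959310-34959367, minus strand): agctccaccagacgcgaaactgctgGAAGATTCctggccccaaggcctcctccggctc

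In these letters the element of Hspe1 begins 89 bases before its RefSeq start, and the 2 of Dnaja4 begin 90 and 52 bases before one of its starts. By GENCODE M21 the Hspe1 stretch lies in a first exon of a longer Hspd1 transcript, part of the Dnaja4 and Hsph1 stretches lies in first exons of other transcripts of those genes, the Dnajb4 stretch lies inside the gene but in no exon, and the Hspb1, Hspa1a and Hspa1b stretches lie outside annotated genes. The Hspa1a and Hspa1b stretches are identical at all 58 positions, and their whole 300-base promoters at 296.

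Libraries held 14443186 to 22048689 counts in all. Mitochondrially encoded transcripts took 20.95% to 24.01% of counts in con-named and 23.9% to 27.2% in HF-named libraries, and the members together took 0.981% to 1.07% and 0.998% to 1.11%. Longer transcripts ran higher in HF-named libraries across the whole transcriptome. The median log2 difference was -0.08 in the shortest of 4 equal classes of genes by exon bases and 0.06 in the longest, so the members are set against this trend below.

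Per transcript length, the small heat shock proteins lead the set. On the deposited FPKM scale, Cryab (αB-crystallin) had the highest mean over all 12 libraries at 721 FPKM, followed by the cardiac small heat shock protein gene Hspb7 at 679 FPKM. Next came Hsp90ab1, the constitutive cytosolic Hsp90, at 456 FPKM, then Hspa8, the constitutive cytosolic Hsp70, at 260.4 FPKM. Hspb6 at 254 FPKM and Hspb8 at 224 FPKM came next, then Hspa9, the mitochondrial Hsp70, and Hspd1. The first 7 genes held 74.0% of the members' summed FPKM, and 36 of the 63 stayed below 10 FPKM. The classical inducible Hsp70 genes were close to the bottom, with Hspa1a at 0.52 FPKM and Hspa1b at 0.60 FPKM, below all members except Hspbap1.

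**Figure D1:**
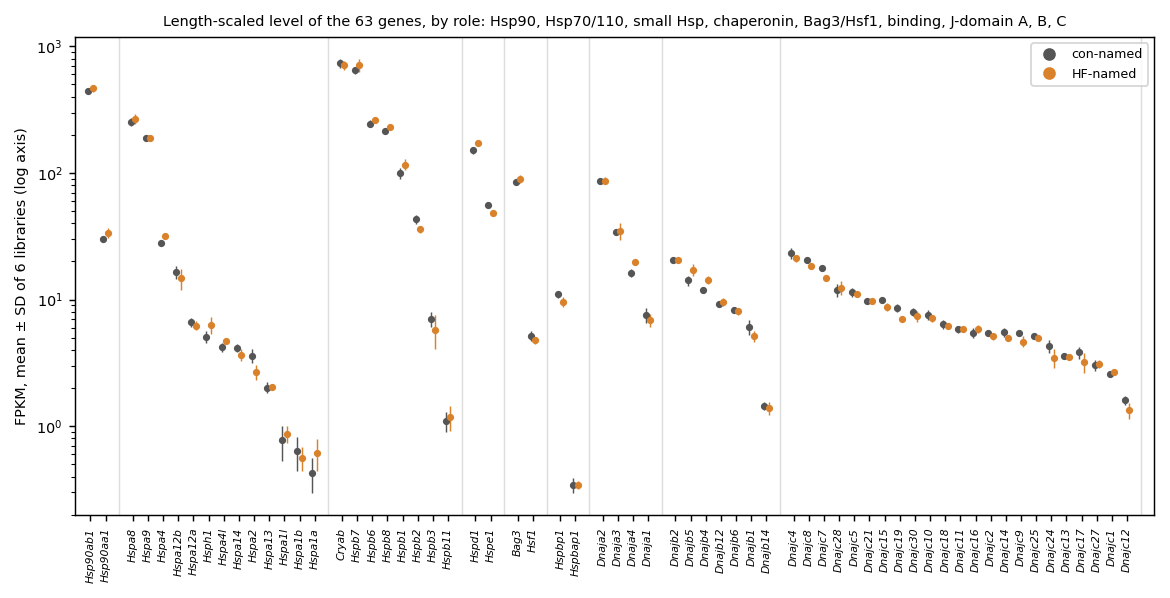
Mean FPKM of each of the 63 genes on a log axis, ordered by level within each role, with grey points for the 6 con-named and orange points for the 6 HF-named libraries and bars for the SD. Levels span from 0.34 FPKM (Hspbap1) to 721 FPKM (Cryab), and the spacing between genes is far wider than that between groups.

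Between the groups, 14 members rose and 2 fell by edgeR's quasi-likelihood test at an adjusted p under 0.05, after scaling by TMM, which equalises the bulk of genes between libraries. Among all genes tested, 8.28% rose and 5.05% fell, while 22.2% of the members rose and 3.17% fell. The members' median log2 difference was 0.10 against -0.01 over all genes, and 41 of 63 were above 0. Rises were small, from 1.12-fold (Dnajc1) to 1.34-fold (Hsph1). In 8 members every HF-named library stood above every con-named library, which held for 3.41% of all genes, and in no member did every HF-named library stand below, which held for 1.95% of all genes. Of the 14, 10 passed the threshold whichever library was left out: Dnaja4, Hspa4, Dnajb4, Dnajb5, Hspd1, Hsp90aa1, Hspb1, Hspa4l, Hsph1 and Hspb8. Dnajc1, Hspb6, Dnajc16 and Bag3, and both falls, did not.

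**Figure D2:**
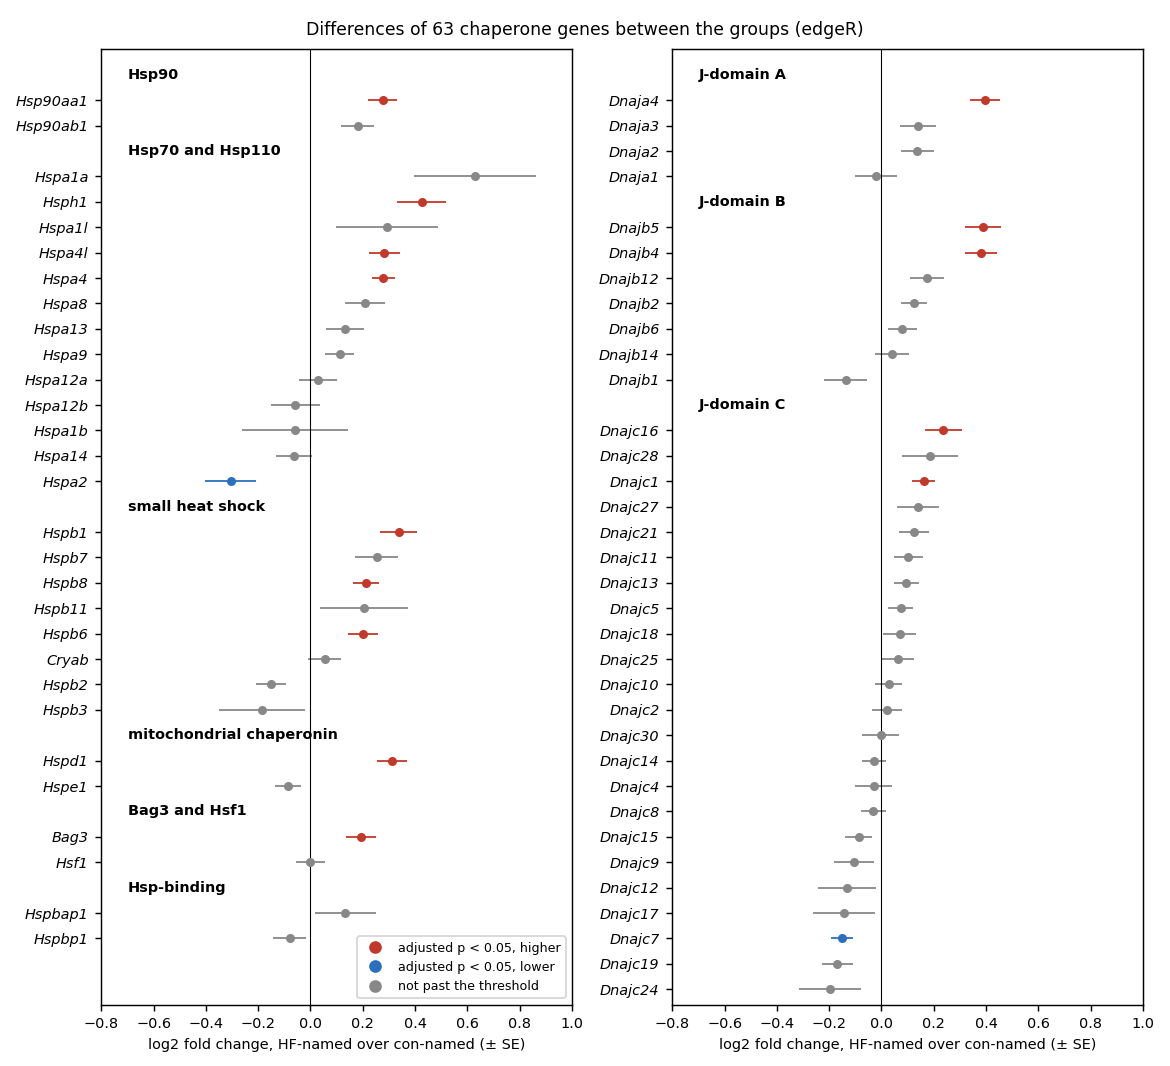
Log2 fold change of HF-named over con-named libraries for each gene, grouped by role, with bars for the SE of edgeR's fit. Red marks the 14 genes higher and blue the 2 lower at an adjusted p under 0.05, and the widest bars belong to the low-count genes Hspa1a, Hspa1b and Hspa1l.

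The scaling sets how these counts divide. When libraries were scaled by their totals alone, the median of all genes moved from -0.01 to -0.13, 3.2% of all genes rose and 17.1% fell, and 8 members rose and 6 fell, with a median of -0.02. The 8 were all among the 10 that passed in every leave-one-out fit, and the 2 of those that did not pass were Hsp90aa1 and Hspb8. A change of scaling shifts every gene's log2 difference by nearly the same amount. The members' distance from the median of all genes was therefore alike under both scalings by construction, and it is no check on the scaling.

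The length trend moved with the groups as well. Over 14904 genes with exon lengths the Spearman correlation of log2 difference with exon length was 0.239, and over the 63 members 0.203, given as a description since genes share the same libraries. Members rose in each of the 4 length classes. In the shortest class 3 of 14 members rose (21.4%, against 3.11% of all genes there), in the second 4 of 19 (21.1% against 4.99%), in the third 3 of 17 (17.6% against 8.25%) and in the longest 4 of 13 (30.8% against 16.7%). With a spline of exon length as an offset for each library, 15 members rose and 1 fell (7.23% and 3.31% of all genes). All 10 of the leave-one-out set stayed among them, Dnajc1, Dnajc16 and Hspa2 dropped out, and Hsp90ab1, Hspb7 and Dnajb12 came in.

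Of the cytosolic Hsp90 pair, the stress-inducible Hsp90aa1 rose. Its level was 106 to 126 CPM (counts after TMM scaling of each library; median 113) in con-named and 124 to 149.8 CPM (median 137) in HF-named libraries, a log2 difference of 0.28 ± 0.05 (SE, n = 6 and 6; edgeR adjusted p = 0.00453). Of the HF-named libraries, 5 stood above all con-named ones, and HF-6 fell just under con-1. The constitutive Hsp90ab1 ran from 1166 to 1401 CPM (median 1276) and from 1255 to 1540 CPM (median 1522), a log2 difference of 0.18 ± 0.06 that missed the threshold (edgeR adjusted p = 0.0683). There 4 HF-named libraries stood above every con-named one, while HF-3 and HF-6 fell within the con-named range. The gene passed without HF-3 (adjusted p = 0.0155), and with DESeq2 in place of edgeR (adjusted p = 0.0278). Reads of Hsp90aa1 may be split with processed copies, since 38.0% of its 100-base windows recur elsewhere, mainly in Gm12346, which had 34 to 62 counts per library.

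Among the 13 Hsp70 and Hsp110 genes, all 3 members of the Hsp110 branch rose, and the testis-enriched Hsp70 gene Hspa2 fell. The rises made up 23.1% and the fall 7.69% of the 13, against 8.28% and 5.05% of all genes tested. Hspa4 (Apg-2) ran from 141 to 158 CPM (median 149) in con-named and 170.5 to 189.8 CPM (median 181) in HF-named libraries, with no overlap between the groups. The difference was 0.28 ± 0.04 log2 units (edgeR adjusted p = 0.00144). Its relative Hspa4l (Apg-1) ran from 38.8 to 51.7 CPM and from 56.8 to 61.6 CPM, again without overlap, with con-5 well below the other con-named libraries. Hspa4l differed by 0.28 ± 0.06 (edgeR adjusted p = 0.00684).

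Hsph1 (Hsp105), the third Hsp110, is strongly heat-inducible and carries the element shown above beside the longer form after its start. It had the largest fold change of the called members. Its level was 30.1 to 40.1 CPM (median 36.5) in con-named and 38.0 to 55.7 CPM (median 47.5) in HF-named libraries, with HF-5 alone inside the con-named range. The difference was 0.43 ± 0.09 (edgeR adjusted p = 0.00866).

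The 2 most abundant Hsp70 genes did not pass in the main edgeR fit. Hspa8 ran from 895 to 1190 CPM (median 1044) and from 1033 to 1396 CPM (median 1222), with 4 HF-named libraries above all con-named ones, and its difference of 0.21 ± 0.08 missed the threshold (edgeR adjusted p = 0.082). It passed without con-1 or without HF-3 (adjusted p down to 0.0286), and with DESeq2 in place of edgeR (adjusted p = 0.0429). Mitochondrial Hspa9 ran from 639 to 759.8 CPM and from 701 to 813 CPM (0.11 ± 0.06, edgeR adjusted p = 0.199). Hspa2 ran from 8.07 to 10.9 CPM in con-named and from 6.37 to 8.51 CPM in HF-named libraries, with 4 of 6 below the con-named range. Its difference of -0.31 ± 0.10 was just past the threshold (edgeR adjusted p = 0.0468) and was lost in 8 of 12 leave-one-out fits (without con-2, con-3, con-4, con-5, HF-2, HF-3, HF-4 or HF-5; adjusted p up to 0.0988). The ribosome-associated Hspa14, the microsomal Hspa13 and the divergent Hspa12a and Hspa12b lay between -0.06 and 0.13 and none passed.

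The inducible Hsp70 genes of chromosome 17 had few counts. Hspa1a ran from 0.726 to 1.68 CPM in con-named and from 1.20 to 2.68 CPM in HF-named libraries. With 4 HF-named libraries above all con-named ones, its difference of 0.63 ± 0.23 was the largest of the set in size and missed the threshold (edgeR adjusted p = 0.0852), passing among the leave-one-out fits only without HF-3 (adjusted p = 0.0408). Hspa1b overlapped fully (1.02 to 2.37 and 1.28 to 2.06 CPM; difference -0.06 ± 0.20, edgeR adjusted p = 0.879). These 2 genes share about 47.1% and 49.9% of their 100-base windows with each other. The authors' counting could divide or lose such reads, so each value is uncertain and may be too low.

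**Figure D3:**
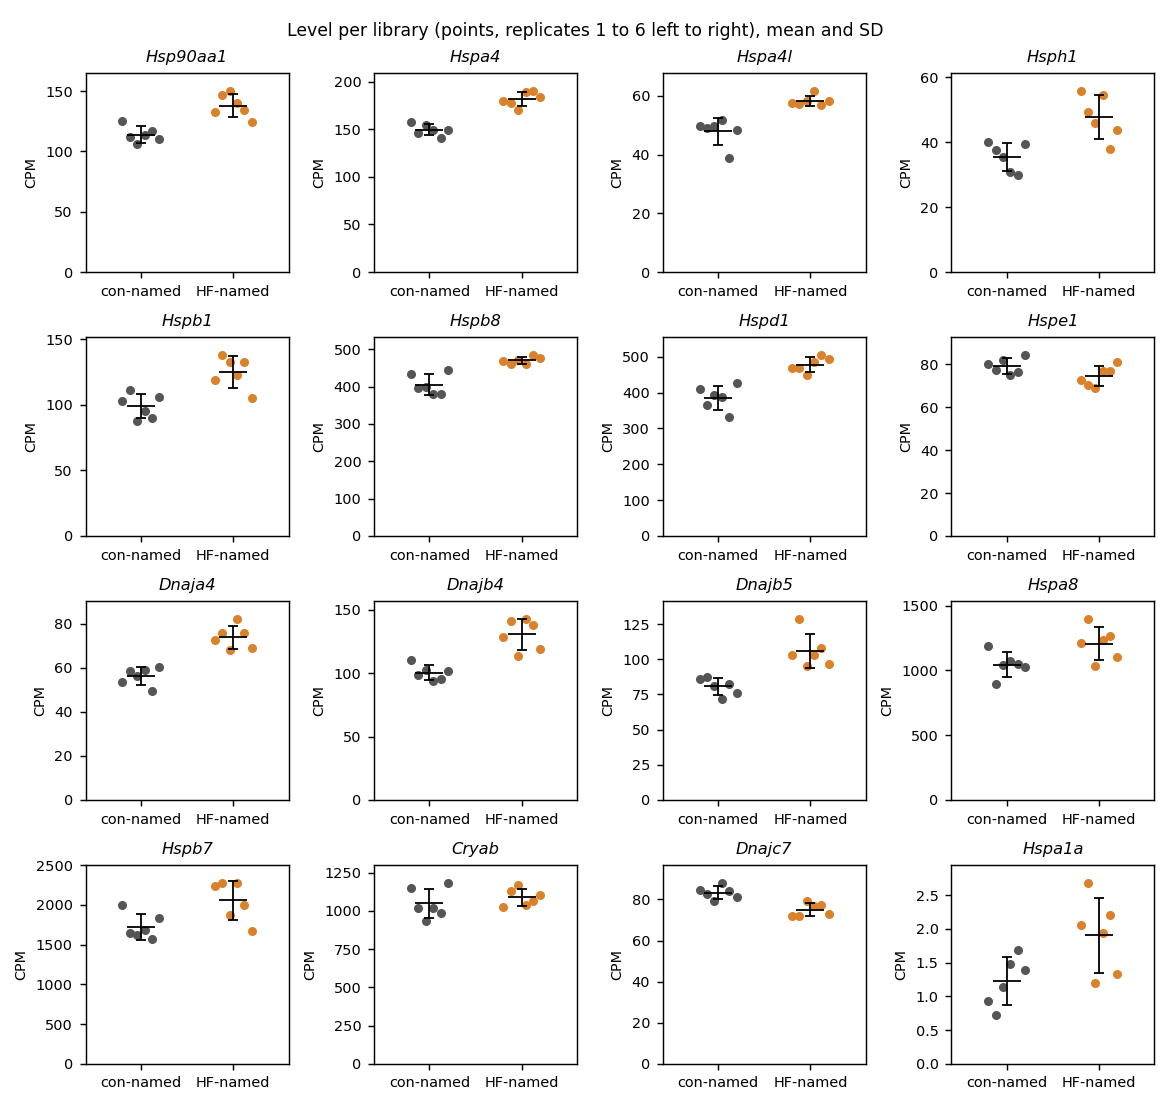
Level in each library in CPM (points, libraries 1 to 6 from left to right within a group), with the mean and SD, for 16 of the members; every axis starts at 0. The Hspa4, Hspa4l, Hspb8, Hspd1, Dnaja4, Dnajb4 and Dnajb5 panels show no overlap between groups, and the Cryab and Hspe1 panels overlap broadly.

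Of the 8 genes placed in the small heat shock class by symbol alone, 3 rose (37.5%, against 8.28% of all genes tested) and none fell (against 5.05%). Hspb1 (Hsp25), which binds actin and filamin, ran from 87.9 to 111 CPM (median 99.2) in con-named and from 105 to 138 CPM (median 128) in HF-named libraries, with only HF-6 inside the con-named range. The difference was 0.34 ± 0.07 (edgeR adjusted p = 0.00684). Its copy Hsp25-ps1, which shares 44.0% of the 100-base windows, had 0 to 8 counts per library. Hspb8, the partner of Bag3 in selective autophagy of damaged filamin, ran from 379.7 to 444 CPM and from 459.6 to 484 CPM without overlap (0.21 ± 0.05, edgeR adjusted p = 0.0115).

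Hspb6 (Hsp20) ran from 502 to 629.6 CPM and from 598 to 648 CPM. In 4 HF-named libraries it stayed below con-1, and the call (0.20 ± 0.06, edgeR adjusted p = 0.0318) was lost in 8 of 12 leave-one-out fits (without con-2, con-3, con-4, con-5, HF-1, HF-2, HF-4 or HF-5; adjusted p up to 0.0773). Hspb7 ran from 1571 to 1998 CPM (median 1662) and from 1672 to 2274 CPM (median 2119), a difference of 0.25 ± 0.08 with an edgeR adjusted p of 0.0532. It passed without con-1, without HF-3 or without HF-6 (adjusted p down to 0.0192). With all libraries it passed by limma-voom (adjusted p = 0.0493) and by DESeq2 (adjusted p = 0.0225).

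The most abundant member, Cryab, ran from 936 to 1182 CPM and from 1028 to 1171 CPM, with full overlap and a difference of 0.05 ± 0.06 (edgeR adjusted p = 0.617). Scaled by library totals its sign turned to -0.06. Hspb2, which faces Cryab on the opposite strand, was lower by an amount that missed the threshold (-0.15 ± 0.06, edgeR adjusted p = 0.0914) and passed without con-2 (adjusted p = 0.0481). Hspb3 and Hspb11, both under 10 CPM, did not pass.

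The mitochondrial chaperonin divided. Hspd1 (Hsp60), which forms the folding chamber, ran from 331 to 425 CPM (median 390.4) in con-named and from 449 to 504 CPM (median 477) in HF-named libraries without overlap, and rose by 0.31 ± 0.06 (edgeR adjusted p = 0.00369). Hspe1 (Hsp10), its lid, ran from 75.0 to 84.2 CPM and from 69.1 to 81.1 CPM, with a difference of -0.09 ± 0.05 that did not pass (edgeR adjusted p = 0.26) and turned into a fall under library totals (adjusted p = 0.0073). The 2 genes lie head to head on chromosome 1, Hspd1 at chr1:55077835-55088243 on the minus strand and Hspe1 at chr1:55088132-55091307 on the plus strand, overlapping by 112 bases in GENCODE M21. Their 300-base RefSeq promoters share 285 bases, including the element shown above.

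Because a ratio of 2 genes within a library is free of library scaling, the 5 pairs of members lying within 20000 bases of each other were compared by the log2 ratio of their counts, a test added after the data were seen. The log2 ratio of Hspd1 to Hspe1 was 2.28 ± 0.09 (SD, n = 6) in con-named and 2.68 ± 0.05 (SD, n = 6) in HF-named libraries. All 6 HF-named ratios, from 2.60 to 2.74, lay above the con-named ones, from 2.12 to 2.37. The difference of 0.40 had p = 0.00216 by an exact two-sided permutation test over all 924 splits, the smallest it can give, and 0.0108 after Benjamini-Hochberg adjustment over the 5 pairs. Hspe1 has 1474 exon bases and Hspd1 2642, and with the length offset their log2 differences were -0.00 and 0.37, nearly as far apart as without it. Reads of Hspd1 can be split with Hspd1-ps3, which shares 22.4% of its 100-base windows and had 99 to 178 counts per library.

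The log2 ratio of Hspb2 to Cryab was -4.92 ± 0.14 in con-named and -5.13 ± 0.06 in HF-named ones (SD over 6 libraries; p = 0.00866 by the exact permutation test, adjusted 0.0216). It lost the call without HF-2 or without HF-6, where the adjusted p was 0.0541. Hspb2 shares 30.2% of its exon bases with Cryab on the opposite strand, and with no stated strand setting those reads cannot be assigned. The ratio of Hspa1b to Hspa1a went from 0.48 ± 0.55 to -0.18 ± 0.32 (SD over 6 libraries; p = 0.0303 by the exact permutation test, adjusted 0.0505). Neither gene's ratio to their neighbour Hspa1l, the testis-enriched Hsp70, passed (adjusted exact permutation p = 0.335 for both). Of the exon bases of Hspa1l, 71.9% overlap Gm10501 on the opposite strand, and 19.0% of those of Hspa1a overlap Gm20481. Part of the reads of Hspa1l and Hspa1a therefore cannot be assigned either.

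**Figure D4:**
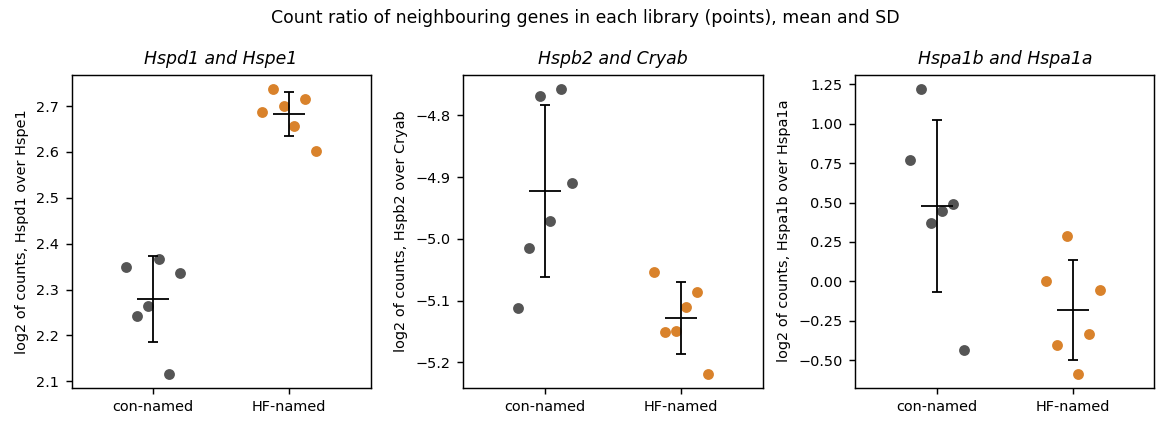
Log2 ratio of the counts of 2 neighbouring genes in each library (points), with the mean and SD, for Hspd1 over Hspe1, Hspb2 over Cryab and Hspa1b over Hspa1a; the axes do not start at 0 and differ between panels. The Hspd1 to Hspe1 ratio separates the groups with a gap, from 2.37 to 2.60, and the other 2 pairs overlap.

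Of the 34 J-domain genes, 5 rose (14.7%) and 1 fell (2.94%). Among the 29 other members 9 rose (31.0%) and 1 fell (3.45%). The shares of all genes tested were 8.28% and 5.05%. The 4 class A and 7 class B genes, which resemble bacterial DnaJ most closely and serve cytosolic or mitochondrial Hsp70, held the 3 largest rises of the family. Dnaja4 ran from 49.6 to 60.5 CPM (median 57.4) in con-named and from 68.1 to 82.2 CPM (median 74.4) in HF-named libraries, with no overlap. It rose by 0.40 ± 0.06 and had the smallest adjusted p of all members (edgeR, 0.000887). Since 44.1% of its exon bases overlap Wdr61 on the opposite strand, part of its reads is uncertain; Wdr61 itself stood at 18.2 CPM in HF-named libraries and was not called.

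Dnajb4 (HLJ1), a cytosolic partner of Hspa8, ran from 94.0 to 110.4 CPM and from 114 to 143 CPM without overlap (0.38 ± 0.06, edgeR adjusted p = 0.00158). Dnajb5, which takes part in redox control of class II histone deacetylases in heart muscle cells, ran from 71.8 to 87.1 CPM and from 95.5 to 129 CPM without overlap (0.39 ± 0.07, edgeR adjusted p = 0.00291). In both genes the lowest HF-named library stood above the highest con-named one.

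The other members of these classes did not pass, among them the main cytosolic partners of Hspa8. Dnaja1 ran from 49.9 to 70.2 CPM and from 52.7 to 72.0 CPM (-0.02 ± 0.08, edgeR adjusted p = 0.892), and Dnajb1 (Hsp40), a standard marker of Hsf1 activity, ran from 14.5 to 20.6 CPM and from 15.0 to 19.1 CPM (-0.14 ± 0.08, edgeR adjusted p = 0.30). Dnaja2, at 86.5 FPKM the most abundant J-domain gene, reached 0.14 ± 0.06 (edgeR adjusted p = 0.165), and the neuron-enriched Dnajb2, at 20.5 FPKM the most abundant of class B, 0.12 ± 0.05 (0.109). Among the leave-one-out fits, both, with Dnajb12, passed only without HF-3 (adjusted p = 0.0463, 0.0376 and 0.0396). Mitochondrial Dnaja3 (Tid1) reached 0.14 ± 0.07 (edgeR adjusted p = 0.188), with HF-3 at 176 CPM far above the other libraries. Dnajb6, a muscular dystrophy gene with the longer element in its promoter, did not pass (0.08 ± 0.05, edgeR adjusted p = 0.362).

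Among the 23 class C genes, which share only the J-domain and act in many compartments, 2 rose (8.7%) and 1 fell (4.35%), near the 8.28% and 5.05% of all genes tested, with a median of 0.02. Dnajc1, a membrane protein of the endoplasmic reticulum, ran from 28.1 to 30.1 CPM and from 30.7 to 33.3 CPM without overlap (0.16 ± 0.04, edgeR adjusted p = 0.024). Dnajc16, another reticulum protein, ran from 29.7 to 37.0 CPM and from 34.9 to 44.3 CPM with overlap (0.24 ± 0.07, edgeR adjusted p = 0.034). Dnajc7 (Tpr2), which passes clients between Hsp70 and Hsp90, ran from 79.2 to 88.0 CPM and from 71.8 to 79.2 CPM (-0.15 ± 0.04, edgeR adjusted p = 0.0296), with 5 HF-named libraries below every con-named one. Leaving out a library ended the Dnajc1 call in 4 of 12 fits (without con-4, con-6, HF-2 or HF-5; adjusted p up to 0.0593). It ended the Dnajc16 call in 7 (without con-4, con-5, con-6, HF-2, HF-4, HF-5 or HF-6; up to 0.0865) and the Dnajc7 call in 5 (without con-1, con-4, HF-1, HF-2 or HF-6; up to 0.0706).

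The 2 class C genes of highest FPKM, Dnajc4 at 22.3 FPKM and the splicing-associated Dnajc8 at 19.5 FPKM, both had a difference of -0.03 and did not pass. Dnajc19, part of the mitochondrial import motor and a cardiomyopathy gene, reached -0.17 ± 0.06 (edgeR adjusted p = 0.0652) and passed as a fall without con-2 (adjusted p = 0.011). Of the 9 members whose products work in mitochondria, 1 rose (Hspd1, 11.1%, near the 8.28% of all genes tested) and none fell (against 5.05%). Of the 8 of the endoplasmic reticulum, 2 rose (Dnajc1 and Dnajc16) and none fell, beside the same shares of all genes. The 8 reticulum members had a median of 0.10, and of -0.01 under library totals.

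Bag3, the exchange factor that couples Hsp70 to Hspb8, ran from 196 to 223 CPM (median 212) and from 214 to 263 CPM (median 244). In 4 HF-named libraries it stood above all con-named ones, and its rise of 0.19 ± 0.06 (edgeR adjusted p = 0.0353) was lost in 8 of 12 leave-one-out fits (without con-2, con-4, con-5, con-6, HF-1, HF-2, HF-4 or HF-5; adjusted p up to 0.0855). Hsf1 mRNA overlapped fully between the groups (33.2 to 39.2 CPM and 33.2 to 39.0 CPM; -0.00 ± 0.06, edgeR adjusted p = 0.997), which says nothing of the activity of the protein. The Hsp70 exchange factor Hspbp1 (-0.08 ± 0.06) and the Hspb1-binding Hspbap1 (0.13 ± 0.12) did not pass (edgeR adjusted p = 0.429 and 0.492).

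A list of 18 members was drawn up for genes that respond to heat, and it also holds Hspa2 and Hspa4, which are not known as strongly inducible. Of the 18, 9 rose (50%, against 8.28% of all genes tested) and 1, Hspa2, fell (5.56% against 5.05%), with a median of 0.21. The list was chosen with earlier results known and was not tested as a set. The 9 were Hspa4, Dnajb4, Hspd1, Hsp90aa1, Hspb1, Hspa4l, Hsph1, Hspb8 and Bag3. The members of that list most used as reporters of heat shock, Hspa1a, Hspa1b and Dnajb1, were not among them, nor were Hspa8, Hsp90ab1, Cryab, Dnaja1 and Hspe1. Of the 13 risen members with a promoter entry, 8 held a pair of units in the window (Bag3, Hsph1, Dnaja4, Dnajb4, Hspd1, Hspb1, Hspb6 and Hspb8), as did neither of the 2 that fell and 8 of the 34 uncalled members with an entry, which include Hspa1a, Hspa1b, Dnaja1 and Hspe1. Among all genes with a promoter entry 17.0% held such a pair. A gene was counted if the window of any of its starts held one. The elements of Bag3 and Hspb8 begin after the start. The site that Hspd1 and Hspe1 share is counted both among the risen and among the uncalled members. A match is a description of letters, not of binding.

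Outside the set, 57 further chaperone and co-chaperone genes held 5 that rose (8.77%) and 2 that fell (3.51%), near the shares of all genes, with a median of 0.03. The largest rise was that of Flnc, filamin C, a client of the Bag3 and Hspb8 complex, at 0.50 ± 0.08 (edgeR adjusted p = 0.0012), which ran from 322 to 394 CPM and from 419.8 to 583 CPM without overlap. The mitochondrial disaggregase Clpb rose by 0.29 ± 0.05 (edgeR adjusted p = 0.00267) and the Hsp70-interacting St13 by 0.20 ± 0.05 (0.0119). Cdc37l1 and Tomm70a were called higher as well. St13, Cdc37l1 and Tomm70a lost their calls under library totals (edgeR adjusted p = 0.143, 0.13 and 0.274). They also lost them with the length offset (0.0558, 0.162 and 0.127). Cdc37l1 and Tomm70a each passed in only 5 of the 12 leave-one-out fits. Fkbp8, an immunophilin of mitochondria, fell by 0.21 (edgeR adjusted p = 0.00406), and the prefoldin subunit Pfdn5 fell by 0.16 (0.0258). The Pfdn5 call was lost with the length offset (edgeR adjusted p = 0.274) and without HF-2 or HF-4 (up to 0.0557). Sqstm1 at 161 FPKM and the Hsp90 partner Fkbp4 at 117 FPKM, the most abundant of the 57, were not called. Of the 5 reticulum chaperones left out by the rule, Dnajc3 alone rose (0.20).

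The libraries of both groups differed in their level of the risen members, which were called from these same libraries. Against the con-named mean, the median log2 level of the 14 risen members was 0.22 in HF-3, the lowest, and 0.35 in HF-2, the highest, and HF-3 was the lowest of the HF-named libraries for 7 of the 14. Without HF-3, 21 members rose and 1 fell, against 10.4% and 6.35% of all genes, the additions being Hspa1a, Hspa8, Hsp90ab1, Dnaja2, Dnajb12, Dnajb2 and Hspb7, while Hspa2 was lost. In con-named libraries the median of the 14 ran from -0.095 (con-5) to 0.09 (con-1). There con-5 was the lowest for 7 of the 14 and con-1 the highest for 7.

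**Figure D5:**
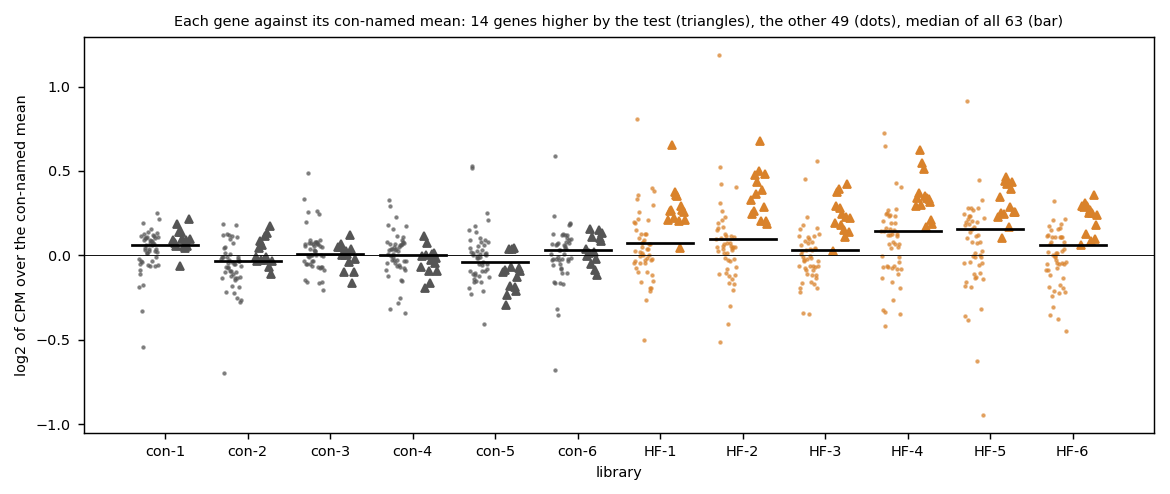
Log2 of each member's CPM over its con-named mean in every library, with triangles for the 14 genes called higher, dots for the other 49 and a bar for the median of all 63. In every HF-named library the triangles lie above 0, with medians from 0.22 (HF-3) to 0.35 (HF-2), while the medians of all 63 lie between 0.03 and 0.16.

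Genes of other groups also differed between the same libraries, and their part in the chaperone differences was not tested. Beside the shares given below, 8.28% of all genes tested rose and 5.05% fell. The cold-inducible RNA-binding genes, Cirbp and Rbm3, both fell, by 0.37 and by 0.47 (edgeR adjusted p = 0.000607 and 0.000668), with all 6 HF-named libraries below all con-named ones. Of 21 tested immediate-early genes 3 rose (Ier5, Cyr61 and Myc, 14.3%) and none fell, with a median of -0.03. Of 19 clock genes 2 rose (Nr1d2 and Rora, 10.5%) and 2 fell (Ciart and Cry2, 10.5%). The summed level of 10 cardiomyocyte markers was 64410 to 72850 CPM in con-named and 67180 to 74360 CPM in HF-named libraries, within which 2 rose and 5 fell. Of 10 fibroblast markers 4 fell (40.0%, summed 1486 to 1907 against 1218 to 1489 CPM). Of 10 endothelial markers 3 fell (30.0%, 1410 to 1804 against 1124 to 1672 CPM). Of 10 macrophage markers 3 fell (30.0%, 253 to 345 against 213 to 282 CPM). None of the fibroblast, endothelial and macrophage markers rose. Of 8 mural markers none was called (1286 to 1462 against 1474 to 1674 CPM). The same held for the tested lymphocyte, Schwann, skeletal muscle and atrial markers, while 1 of 6 erythroid markers rose (16.7%). None of 6 adipocyte markers passed the low-count filter, and of 4 atrial markers 2 did, at a summed 63.7 to 127 CPM and 22.9 to 192 CPM.

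In the authors' deposited table of the same comparison, 14 members rose and 1 fell at its adjusted p under 0.05, and all 15 were called here as well. Hspa2 was called here alone. The largest gap in log2 fold change between that table and the fit above was 0.008 over the 63 members.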

How the data were processed

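Per the labels' protocols, the 12 libraries were made from ventricular RNA after poly-A selection. For each library the authors deposited raw counts per gene and FPKM. The tools named in the submitters' processing notes are HISAT2 2.0.5, HTSeq 0.9.1 and cutadapt 1.15, and the build is mm10. The annotation release and the counting's strand setting were not given in the sources used here. The authors' deposited comparison gives scaled counts (a signal: group means of counts divided by size factors), and each gene's log2 fold change with raw and adjusted p-value.

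Groups follow the library names in the descriptions. The whole table was tested with edgeR 4.0.16 (quasi-likelihood, filterByExpr, TMM, Benjamini-Hochberg over 15114 genes, threshold 0.05, two-sided; R 4.3.3, limma 3.58.1), and only rows of the gene set are printed. The steps were tested on simulated data. CPM came from edgeR, and FPKM was used only for levels between genes. Members and gene lists were chosen with earlier results of these data known, so no list was tested as a set. Named in full were the called members, the 2 of highest FPKM in each role class and the called other chaperones; further members named were chosen after their values were seen. Alternatives were RLE, library totals, no filter, 1 CPM in 6 libraries, a replicate block, no mitochondrial transcripts, limma-voom, DESeq2 1.42.0, each library left out, and, added after the data were seen, an exon length offset and ratios of neighbouring genes. Positions are from GENCODE M21 (GRCm38, the same assembly as mm10). No 2 libraries of a group were near copies (chi-square per degree of freedom 4.35 to 16.5).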

Additional observations from a re-analysis of the deposited data

Results flagged for a closer look

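Among 126 groups of 6 libraries (63 genes in each of 2 groups), 7 held a library standing apart by more than Dixon's 95% critical value for 6 values, and chance flags about 1 group in 20. Hspa4l was set apart in both groups, at 38.8 CPM in con-5, below the other con-named libraries, and at 61.6 CPM in HF-4, above the other HF-named ones. The con-5 library was also the highest con-named one for Hsf1 at 39.2 CPM. Dnaja3 stood at 176 CPM in HF-3 against at most 142 CPM in the other HF-named libraries. Dnajb5 stood at 129 CPM in HF-2 against at most 108 CPM. The con-2 library was the lowest con-named one for Dnajc19 at 28.5 CPM and for Dnajc9 at 10.8 CPM. Hspa4l and Dnajb5 stayed called without the library concerned.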

How the results depend on the processing

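Of the 38 genes that the naming rule gave in full, the direction and the side of the threshold were kept by all 38 under RLE, 1 CPM in 6 libraries and without mitochondrial transcripts, and by 37 under limma-voom; outside these 38, Dnajc19 passed with 1 CPM in 6 libraries (edgeR adjusted p = 0.0445) and Cry2 was lost under RLE (0.0509). Library totals gave 483 genes higher and 2582 lower, 8 members higher and 6 lower with a median of -0.02, 2 heat-inducible genes lower, and 2 other chaperones higher and 16 lower, and turned Cryab to -0.056 and Hspa9 to -0.002. With no filter, 10 members were higher, and 2.88% of the 33411 genes taken in. Bag3, Dnajc1, Dnajc16 and Hspb6 lost their rises, and Hspa2 and Dnajc7 their falls. No member and no heat-inducible gene was then lower, a count of 0 for each, while 3 other chaperones were higher and 1 lower. Replicate numbers did not pair the libraries: same-numbered libraries correlated from -0.161 to 0.09 in their deviations, and 2 of 6 matched best with their own number. As a check, a replicate block left 748 genes higher and 383 lower, 10 members higher and 0 lower, 0 heat-inducible genes lower, and 2 other chaperones higher and 1 lower. The exon length offset gave 501 genes lower, 1 member, 0 heat-inducible genes and 1 other chaperone lower, and turned Dnajc4 to 0.057, Dnajc8 to 0.034, Fkbp4 to 0.022 and Hspbp1 to 0.0. DESeq2 put Hsf1 at 0.001 and called 17 members higher, adding Hspa8, Hsp90ab1 and Hspb7, with 4.29% of the 33411 genes taken in called higher. Leaving out 1 library gave 836 to 1581 genes higher and 500 to 969 lower, 10 to 21 members higher and 0 to 3 lower, 8 to 12 heat-inducible genes higher and 0 to 1 lower, and 3 to 9 other chaperones higher and 1 to 4 lower. It moved Dnajc4 between -0.086 and 0.001 and Hsf1 between -0.031 and 0.021, across 0. The cause was not tested. Hspa1a, Hspa1b and Hspa1l, at most 2.77 CPM, had the widest standard errors of the members, 0.19 to 0.23; counting error and spread between libraries were not separated.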
